A study of Mus musculus with 7 samples.

Results

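Ribosome biogenesis factors are the proteins that make ribosomes without being part of the finished particle. The list held 42 genes, chosen by name for their role, and 40 of them were measured by a transcript cluster (a set of probes read as 1 gene) annotated to 1 symbol, out of 19938 genes so measured in all. Noc2l had no such cluster here and Ppan only one shared with B130055M24Rik, so neither was tested. All 40 passed the filter on dim genes and were among the 13409 genes tested.

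RNA was taken from Paneth cells, which release antimicrobial proteins into the crypts of the small intestine and were isolated by flow cytometry from mice aged 4 months. The ad libitum group (3 arrays) fed freely, and the calorie restricted group (4 arrays) received 60% of the ad libitum calories, each for 4 to 7 weeks. Samples are labelled as biological replicates. The labels name no strain, sex or genotype and do not say whether a sample pools animals. The values are log2 expression per transcript cluster, and a difference is always calorie restricted minus ad libitum on that scale. Levels of different genes on an array are not comparable, so each gene is compared only with itself.

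Ribosome production starts in the nucleolus, where RNA polymerase I copies the ribosomal DNA into a long precursor. Small nucleolar ribonucleoproteins (snoRNPs) then guide its chemical modification, and assembly factors fold and cut it into the small and large subunits. The transcription factor Myc, paired with Max, is a well known activator of these genes, and growth signals such as mTORC1 act on the same programme. Paneth cells are post-mitotic and secrete protein heavily, while the dividing progenitors next to them in the crypt are known for strong ribosome production.

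The letters CACGTG (an E-box) are the site that Myc and Max bind, so members that hold them near the start are shown, with the E-box in capitals. A promoter window, 250 bases before to 50 after the start of the gene, was held for 36 members (RefSeq, GRCm38.p6), but not for Bop1 or Myc. In it 8 of 36 members had CACGTG, which reads the same on both strands, that is 22.2% against 8.91% of 17492 protein-coding genes. In 6 of the 8 members the match lay after the start. The matches were as follows, each read 5′ to 3′ on the gene's strand with up to 12 bases on each side that the window held.
Pno1: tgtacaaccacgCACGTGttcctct
Wdr43: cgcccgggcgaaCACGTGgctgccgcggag
Pes1: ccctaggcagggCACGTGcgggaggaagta
Mybbp1a: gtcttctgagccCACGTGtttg
Nop2: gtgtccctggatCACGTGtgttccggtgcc
Utp20: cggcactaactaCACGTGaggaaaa
Tsr1: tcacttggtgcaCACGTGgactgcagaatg
Rrn3, distal: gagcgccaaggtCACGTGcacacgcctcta
Rrn3, proximal: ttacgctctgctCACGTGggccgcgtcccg

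These stretches lie at chr11:17211540-17211564 (minus strand) for Pno1, chr17:71616220-71616249 (plus) for Wdr43, chr11:3963965-3963994 (plus) for Pes1 and chr11:72441355-72441376 (plus) for Mybbp1a. The others are at chr6:125131811-125131840 (plus) for Nop2, chr10:88826765-88826789 (minus) for Utp20 and chr11:74898092-74898121 (plus) for Tsr1. Those of Rrn3 are at chr16:13780472-13780501 and chr16:13780639-13780668 (plus). The ETS-type site CCGGAAGT, searched on both strands, was in 10 of 36 members (27.8% against 5.69%), and 2 members had both. GGGCGG, the core of the GC box, was in 26 of 36 (72.2% against 49.2%). A match is a description of the letters, and binding was not measured. The 8 members with CACGTG had a median difference of 0.12, with 7 positive. The 26 tested members whose window lacked it had a median of 0.08, with 23 positive.

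No member passed the test between the diets. Of 40 members, 0 were higher and 0 lower (limma, adjusted p below 0.05), where 0.656% of all genes tested were higher and 0.00746% lower (0.664% either way). At an unadjusted p below 0.05 the count was 1 of 40, Bop1, which was higher, against 9.3% of all genes (6.89% higher and 2.41% lower). Among 17 other settings of the fit, weighting the arrays by quality was the only one to call members. It called Bop1 and Pno1 (adjusted p = 0.0312 and 0.0425) in a fit that called 963 genes higher and 392 lower. The differences were small in every role. They ran from -0.07 for Myc to 0.26 for Bop1. All 40 of the 95% intervals lay within 1 log2 unit of 0, as did those of 12842 of the 13409 genes tested.

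Although single members did not pass, most leaned the same way. The difference was positive for 35 of 40 (87.5%), against 54.2% of all genes tested, and the median was 0.09 against 0.01. The share over all genes was larger among brighter genes. With the 60th percentile filter on dim genes, 34 of 39 members (87.2%) were positive, against 62.3% of all genes. The medians there were 0.09 and 0.04. Groups did not overlap for 6 members, all higher under calorie restriction, against 7.14% of all genes. These were Bop1, Wdr43, Rrp12, Nolc1, Nop16 and Ubtf. No member had groups that did not overlap in the lower direction, against 3.03% of all genes.

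**Figure D1:**
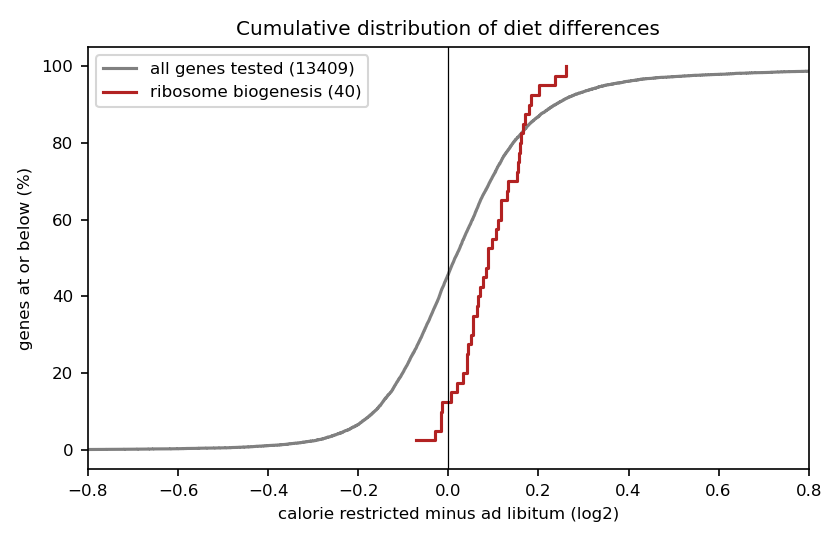
The horizontal axis is the diet difference (log2) and the vertical axis the percentage of genes at or below it, for 40 ribosome biogenesis factors (red) and 13409 genes tested (grey). The red curve spans only -0.07 to 0.26 and lies mostly right of 0, while the grey curve extends beyond the plotted range on both sides.

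**Figure D2:**
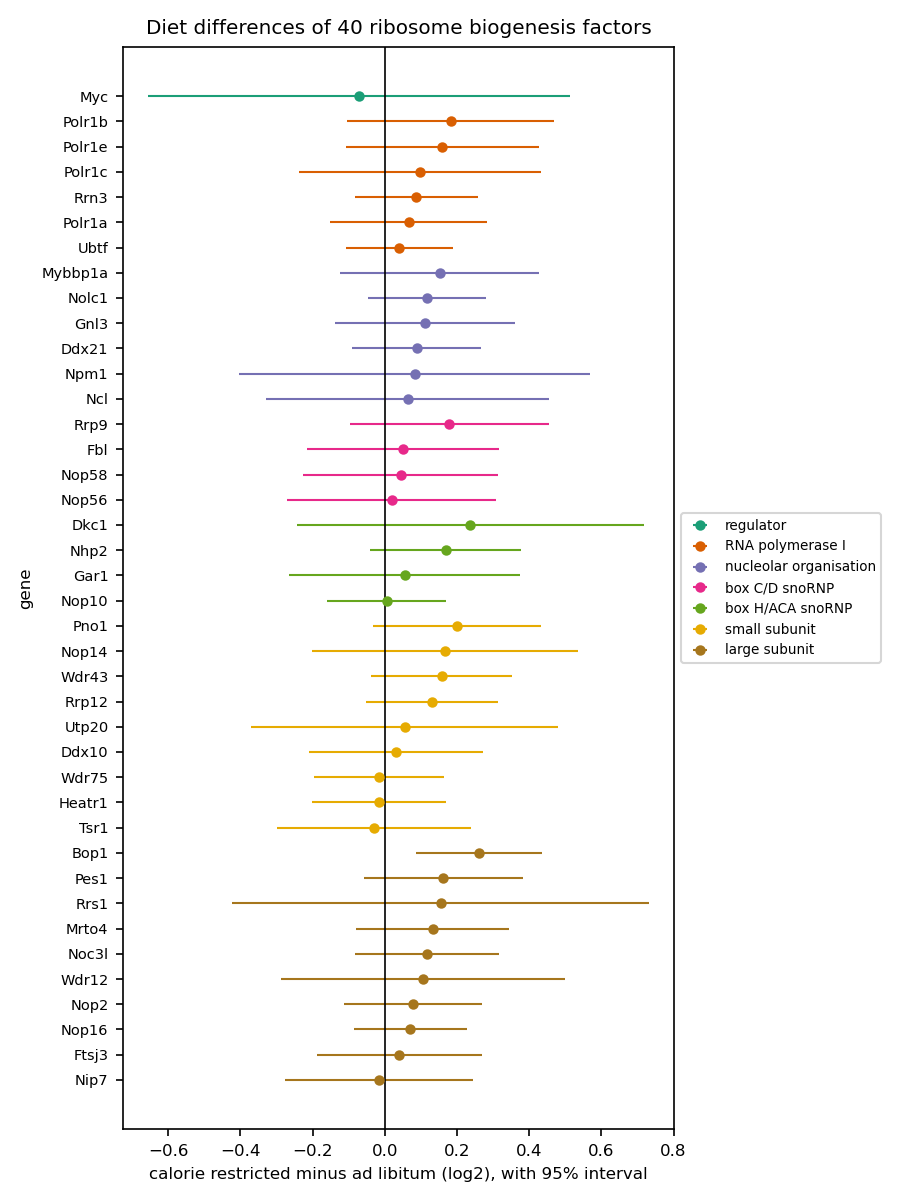
Points are the diet differences (log2, horizontal axis) of 40 members, coloured by role, and bars are 95% intervals of the moderated fit. The interval of Bop1 is the 1 that leaves out 0, and Myc is the lowest point.

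The lean was carried largely by 2 arrays of opposite diets, picked out from these same values. Ad libitum replicate 1 was the lowest of the 7 arrays for 24 of 40 members, where it was lowest for 21.8% of all genes. Calorie restricted replicate 4 was the highest for 19 of 40, against 18.5% of all genes. Averaged over the 40 members, the calorie restricted arrays (replicates 1 to 4) stood at 10.01, 9.99, 9.93 and 10.10. The ad libitum arrays (replicates 1 to 3) stood at 9.80, 9.95 and 9.99, so the diets overlapped. With the first of these arrays left out the median difference was 0.05 with 27 of 40 positive, and with the second left out it was 0.06 with 30 positive. Without both, a fit added after seeing these values, it was 0.02 with 21 of 40 positive. All genes in that fit had a median of 0.03 and 55.4% positive. These arrays held the lowest and the highest mean of the members, so leaving them out had to lower the members' mean difference. The smaller lean is thus a description and no test of its cause. Fits without these arrays, given below for roles and other lists, use the same choice. Centring each array on its median moved the median of all genes to 0.10. There the members' median was 0.17 and all 40 were positive, against 76.8% of all genes. Quantile normalization and array weights went the other way. The first gave the members a median of 0.05 with 32 of 40 positive, beside 0.03 and 59.9% of all genes. The second gave 0.04 with 26 positive, beside 0.02 and 54.2%. Its weights were lowest for ad libitum replicate 1 (0.29) and calorie restricted replicate 4 (0.37), so it is no separate check on those arrays.

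**Figure D3:**
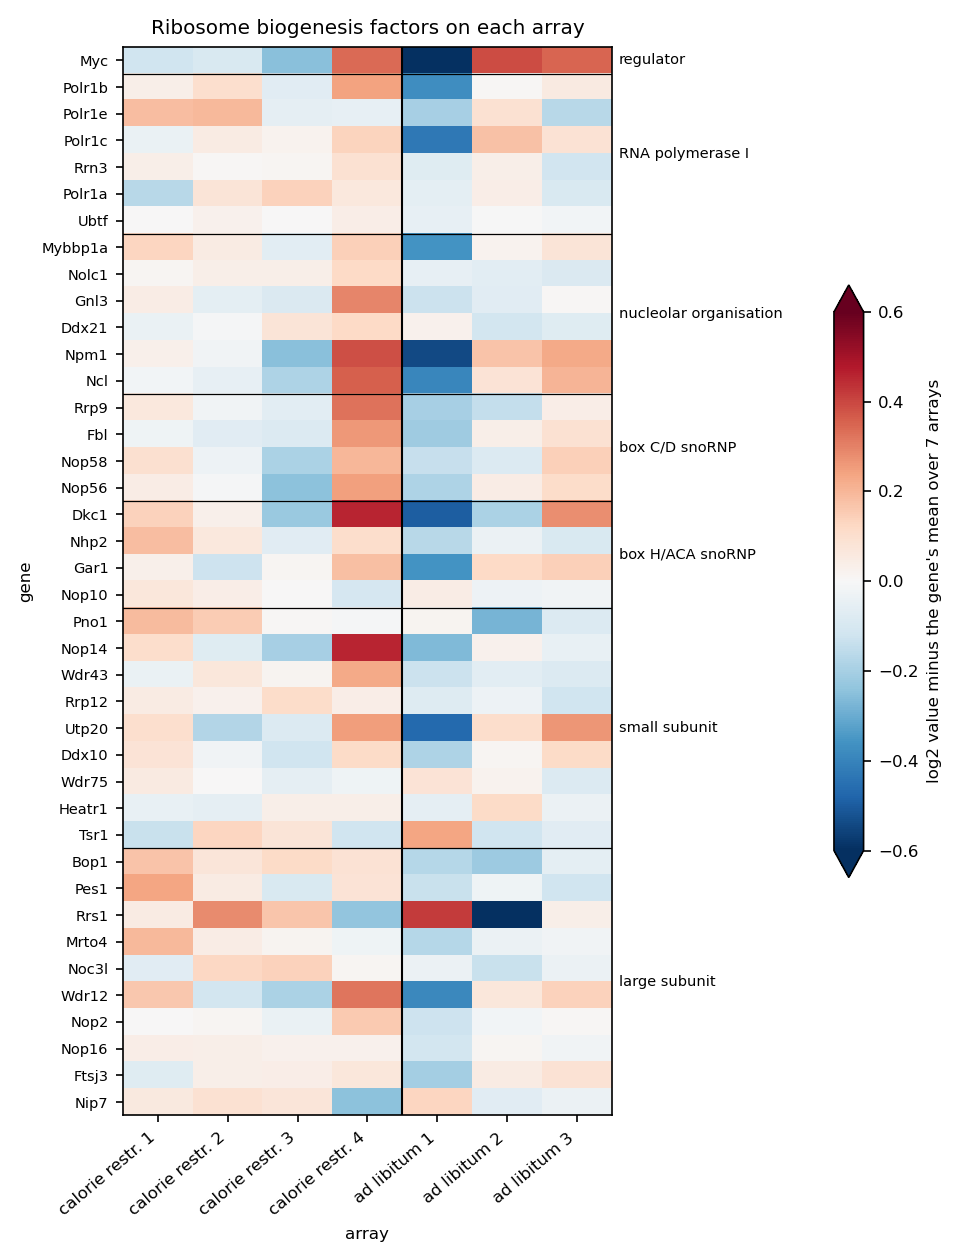
Each cell is a member's log2 value minus its mean over 7 arrays, with members in rows by role and arrays in columns, and the colour scale is held to -0.6 to 0.6. The column of ad libitum replicate 1 is mostly blue and that of calorie restricted replicate 4 mostly red. Some members run the other way, such as Tsr1, Nip7, Rrs1, Wdr75 and Nop10.

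Genes of dividing crypt cells separated the same 2 arrays. Averaged over 19 cycling crypt genes, the arrays stood, in order of replicate, at 10.45, 9.99, 9.84 and 10.70 under calorie restriction and at 9.30, 10.25 and 10.55 under ad libitum feeding. Its lowest array was thus also the members' lowest, and its highest array their highest. Of the 19 genes 0 passed between diets (limma, adjusted p below 0.05), 0 had an unadjusted p below 0.05, and 19 differences were positive, with a median of 0.23. That direction rested on ad libitum replicate 1: leaving it out gave a median of -0.19 with 2 of 19 positive. Array weights, which weigh that array least, gave -0.18 with 2 positive. Leaving out calorie restricted replicate 4 gave 0.08 with 13 positive. Ccnb1 was the 1 listed gene without a cluster of its own. Pcna, the replication clamp, was at 12.21, 11.997, 11.85 and 12.20 under calorie restriction and at 11.69, 11.74 and 12.10 under ad libitum feeding. Stmn1, which destabilises microtubules, was at 11.98, 11.61, 11.43 and 11.94 against 10.89, 11.94 and 12.03. With the list mean entered in the fit, a choice made after the values were seen, the members' median difference was 0.06, with 29 of 40 positive and 0 passing. In a sorted bulk sample, fewer cells of a type and less RNA per cell cannot be told apart. The part of cycling cells in the members' values was not tested beyond that fit.

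Other cell type lists behaved differently across the arrays. Of 14 Paneth genes 0 passed. Lyz1, the lysozyme that marks these cells, was at 14.31 ± 0.04 (SD, n = 4) against 14.31 ± 0.02 (n = 3). That is near the highest values of the arrays (14.60 to 14.67), so a level Lyz1 says little about Paneth content. Of the 14 differences 13 were negative, with a median of -0.05 and a range of -1.42 to 0.09. Groups did not overlap for 1 of the 14, which was lower, against 3.03% of all genes. Calorie restricted replicate 4, however, was below the mean for all 14 genes. Without it the median was -0.00303 with 7 positive, and after median centring 9 were positive. Enterocyte genes, of absorptive cells that the sort should leave out, had 10 of 28 higher. Their list mean was 11.51 to 11.73 under calorie restriction and 10.22 to 10.83 under ad libitum feeding. Diet and enterocyte content therefore cannot be told apart. With that mean as a covariate the members' median was 0.26, with 34 of 40 positive and 0 passing. All genes in that fit had a median of 0.01 and 51.2% positive. Its estimates were less precise: the SE of Bop1 was 0.21, against 0.08 in the main fit. No gene passed in the crypt stem, goblet, enteroendocrine, tuft, immune or stroma lists. The crypt stem mean was also lowest in ad libitum replicate 1 (10.57), but highest in ad libitum replicate 2 (11.06). Array medians lay between 7.24 and 7.44.

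**Figure D4:**
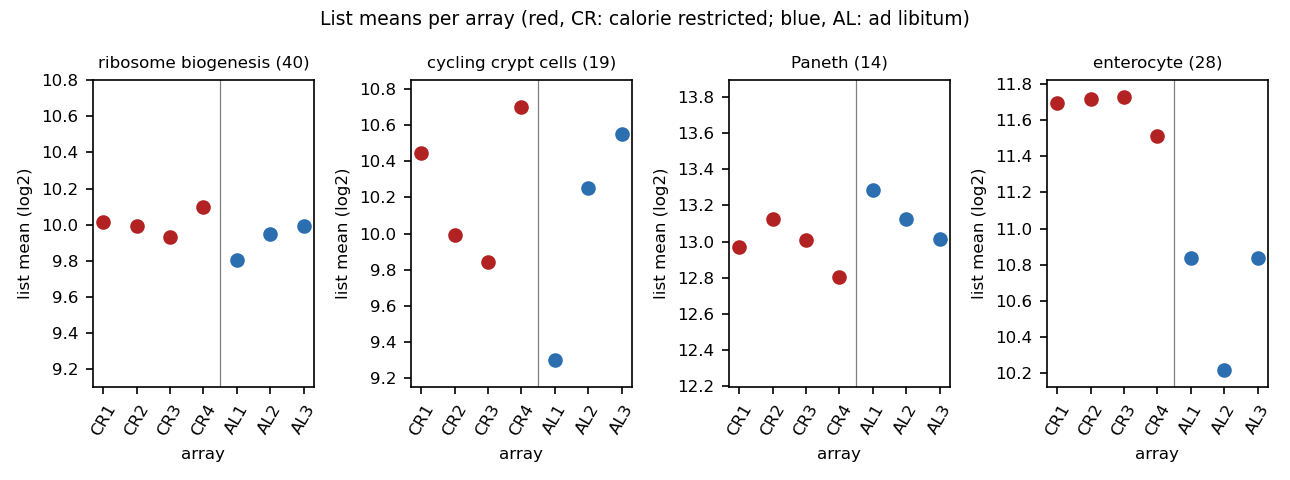
Each point is the mean log2 value of a list on 1 array (vertical axes all span 1.7 log2 units), for calorie restricted (CR, red) and ad libitum (AL, blue) arrays. The biogenesis and cycling means are lowest in ad libitum replicate 1 and highest in calorie restricted replicate 4, and the diets are fully separated in the enterocyte means.

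Myc, the transcription factor that drives much of the programme, varied more between arrays than between diets. It was at 11.37, 11.40, 11.24 and 11.83 under calorie restriction and at 10.87, 11.89 and 11.84 under ad libitum feeding, in order of replicate. Ad libitum replicate 1 was the lowest array and lay far under its 2 fellows, while calorie restricted replicate 4 lay beside those 2. The difference was -0.07 ± 0.25 (SE; 95% interval -0.66 to 0.51; limma, adjusted p = 0.961). Without ad libitum replicate 1 it was -0.40, and without that array and calorie restricted replicate 4 it was -0.53 ± 0.07 (limma, adjusted p = 0.00806). Those arrays were left out after seeing values that include Myc, so the latter is no support. The sign was positive after median centring (0.0154), with calorie restricted replicate 3 left out and with either of ad libitum replicates 2 and 3 left out. It was also positive with the enterocyte covariate, at 1.00 with an SE of 0.60.

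Of 12 other genes of the Myc network, 0 passed, 10 had a positive difference and the median was 0.10 (0.04 with 8 positive when ad libitum replicate 1 was left out). Groups did not overlap for 3 of the 12, all higher, against 7.14% of all genes. Max and Mnt had the smallest p of the list. Max, the obligate partner of Myc, was at 10.78, 10.90, 10.89 and 10.77 under calorie restriction and at 10.54, 10.36 and 10.42 under ad libitum feeding. The groups did not overlap, and the difference was 0.39 ± 0.08 (limma, adjusted p = 0.0999). Mnt, a repressor that also pairs with Max, had a difference of 0.25 ± 0.09 (adjusted p = 0.407, limma). Among 19 other genes known as Myc targets 0 passed, and the median was 0.13 with 17 positive. It was 0.06 with 12 positive when ad libitum replicate 1 was left out and 0.00637 with 10 positive when calorie restricted replicate 4 was left out too. The translation factor Eif4e (0.25 ± 0.09) and the purine synthesis enzyme Ppat (0.44 ± 0.15) had the smallest p.

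RNA polymerase I makes the ribosomal RNA precursor. Its 6 members all had positive differences, with a median of 0.09, and 0 passed. With ad libitum replicate 1 left out the median was 0.05 with 5 positive, and with calorie restricted replicate 4 out as well it was 0.03 with 4 positive. Polr1b, the second largest subunit, was at 10.70, 10.77, 10.60 and 10.91 under calorie restriction and at 10.29, 10.67 and 10.72 under ad libitum feeding. Ad libitum replicate 1 stood below the rest and the groups overlapped, with a difference of 0.18 ± 0.12 (limma, adjusted p = 0.756). Polr1e, a subunit that aids initiation, was at 9.005, 9.01, 8.76 and 8.77 against 8.62, 8.91 and 8.66. Here calorie restricted replicates 1 and 2 were highest and the groups again overlapped.

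Ubtf, which bends and marks active ribosomal DNA, was nearly level. It was at 10.978, 11.003, 10.981 and 11.018 under calorie restriction and at 10.927, 10.975 and 10.960 under ad libitum feeding. The groups did not overlap, but the difference was 0.04 ± 0.06, and it was -0.000872 after quantile normalization. The initiation factor Rrn3, the largest subunit gene Polr1a and Polr1c, a subunit shared with RNA polymerase III, had differences of 0.09, 0.07 and 0.10. Polr1c was at 9.51 in ad libitum replicate 1 and between 9.90 and 10.12 on the 6 other arrays.

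The 6 members that organise the nucleolus also had positive differences, with a median of 0.10, and 0 passed. Leaving out either ad libitum replicate 1 or calorie restricted replicate 4 gave 0.05 with 4 positive, and leaving out both gave -0.00716 with 2 positive. Nolc1, a chaperone of snoRNPs, was at 10.18, 10.21, 10.21 and 10.29 under calorie restriction and at 10.12, 10.11 and 10.08 under ad libitum feeding. All 4 calorie restricted arrays were above all 3 ad libitum arrays, by a difference of 0.12 ± 0.07 (limma, adjusted p = 0.712). Mybbp1a, a nucleolar protein that acts on ribosomal RNA transcription and processing, was at 10.54, 10.46, 10.34 and 10.55 against 10.05, 10.43 and 10.49. Only ad libitum replicate 1 stood apart there.

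Npm1 (nucleophosmin) and Ncl (nucleolin), abundant proteins that scaffold the nucleolus, spread widely between arrays. Npm1 was at 11.00, 10.95, 10.72 and 11.35 against 10.43, 11.14 and 11.20, and Ncl at 11.62, 11.59, 11.46 and 11.998 against 11.25, 11.72 and 11.84. Both were lowest in ad libitum replicate 1 and highest in calorie restricted replicate 4. Their differences were 0.08 ± 0.21 and 0.06 ± 0.17. Npm1 was also named by 3 clusters shared with Gm15484, whose differences were 0.04, 0.02 and -0.05. These were not tested, and near-identical copies make the value of Npm1 uncertain. The RNA helicase Ddx21 and the GTP-binding protein Gnl3 (nucleostemin) had differences of 0.09 and 0.11.

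Box C/D snoRNPs carry the 2′-O-methylation of ribosomal RNA. Their 4 members had a median of 0.05, all positive, and 0 passed. Rrp9, a protein of the U3 particle, was at 9.04, 8.96, 8.91 and 9.30 under calorie restriction and at 8.77, 8.83 and 9.02 under ad libitum feeding. Calorie restricted replicate 4 was the highest and the groups overlapped, with a difference of 0.18 ± 0.12. Fbl (fibrillarin), the methyltransferase itself, was at 10.86, 10.82, 10.81 and 11.15 against 10.67, 10.93 and 10.98. Its difference was 0.05 ± 0.12, and it was -0.04 with ad libitum replicate 1 left out and -0.03 with calorie restricted replicate 4 left out. The second cluster of Fbl gave 0.02. Nop56 and Nop58, the paired core proteins of the particle, had differences of 0.02 and 0.04. The median of this role was -0.03 with 1 of 4 positive when ad libitum replicate 1 was left out, and -0.02 with 1 positive when calorie restricted replicate 4 was.

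Box H/ACA snoRNPs carry pseudouridylation. Their 4 members had a median of 0.11, all positive, and 0 passed. The median was 0.04 with 3 positive when ad libitum replicate 1 was left out, and 0.000359 with 2 positive when calorie restricted replicate 4 was left out too. Nhp2, a core protein, was at 9.54, 9.42, 9.29 and 9.47 under calorie restriction and at 9.19, 9.32 and 9.27 under ad libitum feeding. Calorie restricted replicate 3 lay within the ad libitum range and the other 3 above it, with a difference of 0.17 ± 0.09 (limma, adjusted p = 0.659). Dkc1 (dyskerin), the pseudouridine synthase, was at 9.57, 9.46, 9.21 and 9.88 against 8.93, 9.24 and 9.71. Both diets spread widely and overlapped, and the difference was 0.24 ± 0.21. Gar1, another core protein, had a difference of 0.06. Nop10, the smallest protein of the particle, had a difference of 0.01 with a 95% interval of -0.16 to 0.17.

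**Figure D5:**
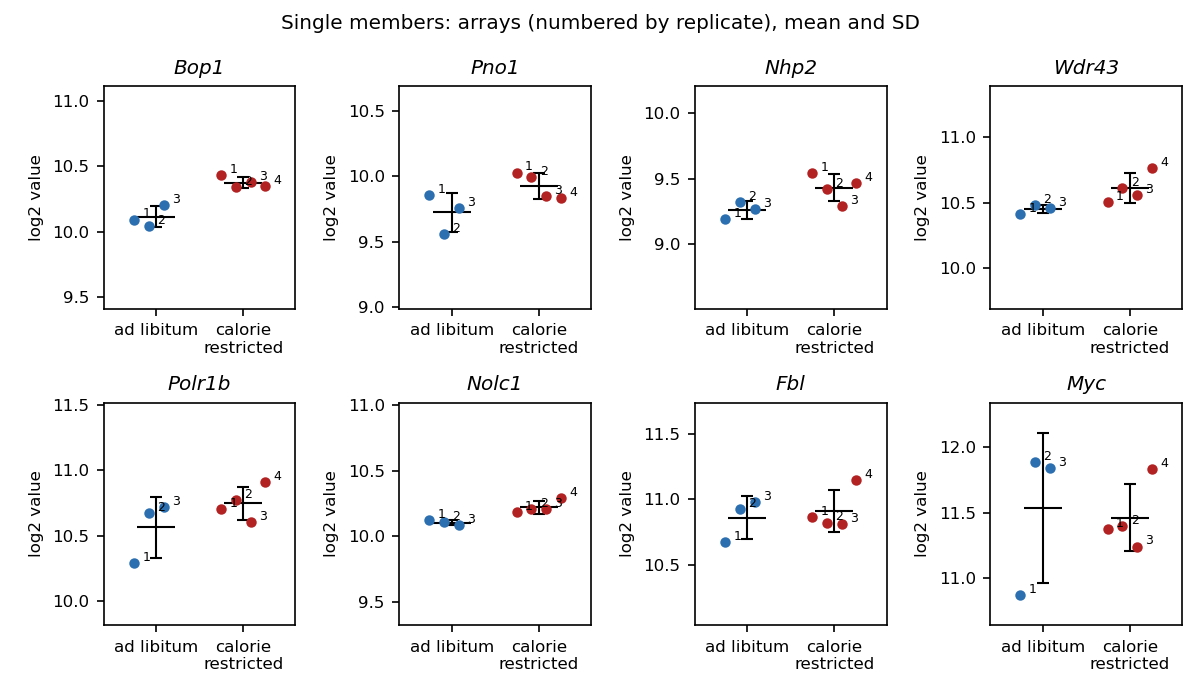
Log2 values of 8 members (vertical axes all span 1.7 log2 units) for ad libitum (blue) and calorie restricted (red) arrays, numbered by replicate, with the mean and SD in black. Bop1, Wdr43 and Nolc1 show diets that do not overlap, and Myc and Polr1b show ad libitum replicate 1 apart from its fellows.

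Among 9 factors of the small subunit, 6 had a positive difference, the median was 0.06 and 0 passed. The median was 0.08 with 6 positive when ad libitum replicate 1 was left out, and 0.03 with 5 positive when calorie restricted replicate 4 was left out too. It was 0.0074 with 5 positive when only calorie restricted replicate 4 was left out, and -0.00598 with 4 positive under array weights. Pno1, an RNA-binding protein of late small subunit assembly, was at 10.03, 9.99, 9.84 and 9.83 under calorie restriction and at 9.85, 9.56 and 9.76 under ad libitum feeding. The groups overlapped by 1 ad libitum array, and the difference was 0.20 ± 0.10 (limma, adjusted p = 0.631). Calorie restricted replicates 3 and 4 were the lower arrays of their diet. Its difference was 0.33 with array weights and -0.23 with the enterocyte covariate.

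Wdr43, a WD-repeat protein of the small subunit processome, was at 10.50, 10.61, 10.56 and 10.77 against 10.41, 10.48 and 10.46. Rrp12, which acts in nuclear export of pre-ribosomes, was at 8.59, 8.57, 8.66 and 8.59 against 8.47, 8.52 and 8.43. In neither did the diets overlap, and the differences were 0.16 ± 0.08 and 0.13 ± 0.08 (limma, adjusted p = 0.660 and 0.711).

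The other small subunit factors were level or spread by array. Nop14, of the small subunit processome, was at 9.59, 9.41, 9.28 and 9.94 against 9.22, 9.51 and 9.44, with a difference of 0.17 ± 0.16. Utp20, of the same particle, was at 8.75 in ad libitum replicate 1 and between 9.04 and 9.48 elsewhere. The helicase Ddx10 had a difference of 0.03, and those of the processome proteins Wdr75 and Heatr1 were at -0.01 and -0.02. Tsr1, a GTPase-like maturation factor, ran against the list. It was at 10.01, 10.27, 10.22 and 10.02 under calorie restriction and at 10.38, 10.03 and 10.07 under ad libitum feeding, so that ad libitum replicate 1 was its highest array.

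Of 10 tested factors of the large subunit, 9 had a positive difference and the median was 0.11, with 0 passing. It was 0.06 with 8 positive when ad libitum replicate 1 was left out, and 0.12 with 7 positive when calorie restricted replicate 4 was left out too. Bop1 works with Pes1 and Wdr12 in the PeBoW complex, which is needed for large subunit processing. Bop1 was at 10.44, 10.34, 10.38 and 10.35 under calorie restriction and at 10.09, 10.05 and 10.20 under ad libitum feeding. All 4 calorie restricted arrays lay above all 3 ad libitum arrays, and neither ad libitum replicate 1 nor calorie restricted replicate 4 was extreme. The difference was 0.26 ± 0.08, or 1.199-fold (95% interval 0.09 to 0.44; limma, adjusted p = 0.268, unadjusted p = 0.00870). It was 0.26 without both of those arrays (limma, adjusted p = 0.0919) and 0.25 with the cycling covariate (limma, adjusted p = 0.0721). Both settings were chosen after seeing the data, and they called 866 and 532 genes higher. With the enterocyte covariate the difference of Bop1 was 0.10 with an SE of 0.21 (limma, adjusted p = 0.945). Over 17 other settings of the fit it ran from 0.10 to 0.35, with adjusted p from 0.0312 to 0.945 (limma).

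Its 2 partners had smaller differences. Pes1 was at 10.15, 9.96, 9.83 and 10.00 under calorie restriction and at 9.78, 9.89 and 9.80 under ad libitum feeding. Calorie restricted replicate 3 lay inside the ad libitum range, and the difference was 0.16 ± 0.10 (limma, adjusted p = 0.695). Wdr12 was at 9.14, 8.87, 8.79 and 9.30 against 8.59, 9.05 and 9.11. Its lowest and highest arrays were those of the list as a whole, and its difference was 0.11 ± 0.17. The second cluster of Wdr12 gave 0.06.

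Nop16, a nucleolar factor of the large subunit, was at 10.86, 10.86, 10.85 and 10.85 under calorie restriction and at 10.71, 10.83 and 10.80 under ad libitum feeding. The groups did not overlap, with a difference of 0.07 ± 0.07. Rrs1, which helps to recruit the 5S particle, was at 7.73, 7.96, 7.84 and 7.44 against 8.09, 6.96 and 7.71. Its lowest and highest arrays were both ad libitum, and its difference was 0.16 ± 0.25. The differences of the P0-like factor Mrto4 (0.13, and 0.15 from its other cluster), the nucleolar factor Noc3l (0.12), the RNA methyltransferase Nop2 (0.08) and the methyltransferase Ftsj3 (0.04) were positive, and none passed. Nip7 had a difference of -0.02. The untested cluster that names Ppan had a difference of 0.01.

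No gene passed in the rest of the pathway. In 5 further lists (other RNA polymerase I, small subunit, large subunit, snoRNP assembly and RNA exosome genes), 135 genes were tested, 0 passed, 13 had an unadjusted p below 0.05, all higher, and 107 differences were positive, with a median of 0.09. The share at an unadjusted p below 0.05 was 9.63%, beside 6.89% of all genes in the higher direction and 9.3% in either. The lists differed in their counts: 9 of 15 other RNA polymerase I genes were positive, 42 of 50 for the small subunit, 36 of 46 for the large subunit, 9 of 10 for snoRNP assembly and 11 of 14 for the exosome. With ad libitum replicate 1 left out, the medians of other RNA polymerase I and snoRNP assembly were -0.0147 (6 of 15 positive) and -0.0252 (4 of 10). With calorie restricted replicate 4 out as well they were -0.04 (6 of 15) and -0.10 (3 of 10). The exosome median went from 0.08 to 0.0102 (8 of 14) and that of the large subunit from 0.10 to 0.06 (31 of 46) without the first array, while that of the small subunit was 0.09 and 0.10 (34 of 50). The genes named next had the smallest p in their lists. In snoRNP assembly, Naf1, which loads H/ACA particles, had a difference of 0.50 ± 0.11 (limma, adjusted p = 0.121). It was at 9.15, 9.23, 8.98 and 8.96 under calorie restriction and at 8.46, 8.54 and 8.73 under ad libitum feeding, with no overlap. In the small subunit list, Wdr46 (0.35 ± 0.08; limma, adjusted p = 0.135) and the helicase Ddx52 (0.31 ± 0.09) were these genes. In the large subunit list they were Ddx56 (0.22 ± 0.07) and Nsa2 (0.21 ± 0.07), where other differences reached 0.33. Polr2f, a subunit shared by the RNA polymerases, had a difference of 0.31 ± 0.09 and Polr1d 0.19 ± 0.07. In the exosome they were Exosc8 (0.35 ± 0.25) and Exosc1 (0.10 ± 0.09). In RNA polymerase III, which makes 5S ribosomal RNA, the median was 0.04 with 0 of 18 passing, and Gtf3c3 (0.22 ± 0.08) and Brf1 (-0.35 ± 0.16) had the smallest p.

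Small nucleolar RNA genes lie inside some members, counted by position without comparing strands. By their place in the RefSeq table, 8 of 42 members (19%) have an annotated small nucleolar RNA gene inside the gene body, against 1.7% of 21900 protein-coding genes. These were Gnl3, Ncl, Nop58, Nop56, Dkc1, Wdr43, Tsr1 and Ppan. Nop56 held 5 of them, Snord57 and Snord110 included, and Nop58 held 4. The 7 tested members of these 8 had a median difference of 0.06, with 6 positive.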

How the data were processed

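The authors deposited log2 expression values per transcript cluster. The submitters' processing notes name Affymetrix Expression Console. Which version, algorithm, background step or normalization it used is not given in the sources used here. That the scale is log2 was inferred from the range of the values. No detection call was used, and the number of arrays limits the precision.

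Of 35556 clusters, 21789 had 1 gene symbol, 1621 several and 12146 none in the platform annotation. The brightest single-symbol cluster per gene was kept, and a gene needed a mean of at least 6.79, the 40th percentile over clusters, to be tested. The diet difference was fitted in R (version 4.3.3) by limma (version 3.58.1), with lmFit and eBayes with an intensity trend, Benjamini-Hochberg adjustment over 13409 genes. SE and 95% intervals are those of the fit. If replicates are not separate animals, p-values measure only the spread between samples. On simulated arrays over 13409 genes for this comparison, 85 of 100 genes changed by 1 log2 unit and 99 of 100 changed by 2 were recovered, with 13 of 197 calls false.

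Members and gene lists were chosen with earlier results of these data known. Values on every array were given for Bop1, Myc, members whose groups do not overlap, the 2 with the smallest p per role and those with the largest and smallest difference; further members were added after their values were seen. At most 2 genes per other list were named. Figures used matplotlib (version 3.10.9).

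The fit was repeated after quantile normalization or median centring, with other filters on dim genes, the mean of a gene's clusters, other variance moderation, array weights, the replicate number as a block, the enterocyte list mean as a covariate and without each array in turn. The cycling list mean as a covariate, and leaving out 2 arrays together, were chosen after seeing the data.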

Additional observations from a re-analysis of the deposited data

Results flagged for a closer look

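Among the 40 members, 2 had a calorie restricted array far from the other 3, where chance alone flags about 1 gene in 20. For Fbl, calorie restricted replicate 4 was at 11.15 and the others between 10.81 and 10.86, so that the gap made up 0.837 of the range of the group. For Nip7, which acts in large subunit assembly, the same array was at 8.58 and the others between 8.89 and 8.92, a gap of 0.900 of the range. The array was thus high for Fbl and low for Nip7. Groups of 3 were not tested in this way, so the low values of ad libitum replicate 1 were not.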

How the results depend on the processing

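The count of 0 members called held in 16 of 17 other settings of the fit, and in the 7 fits without 1 array it was 0 throughout. It was 2 with array weights and 1 (Myc) without both calorie restricted replicate 4 and ad libitum replicate 1. That fit and the cycling covariate were chosen after seeing the data. Positive members numbered 27 to 37 in the fits without 1 array and 21 without both arrays. The median difference (0.09) was 0.05 to 0.13 without 1 array, 0.05 after quantile normalization (0.03 over all genes), 0.04 with array weights (0.02), 0.17 after median centring, which also moved the median of all genes to 0.10, and 0.26 with the enterocyte covariate. Over all genes the calls were less stable. Genes called higher (88) numbered 53 after quantile normalization, 963 with array weights, 0 with the enterocyte covariate (limma, where 296 genes had an unadjusted p below 0.05), 532 with the cycling covariate, 866 without both arrays and 12 to 97 without 1 array. They numbered 12, 23, 12 and 55 without calorie restricted replicates 1 to 4 and 32 without ad libitum replicate 2. Genes called lower (1) numbered 0 after quantile normalization, median centring, the 60th percentile filter or the enterocyte covariate, 2 with no filter, 392 with array weights, 120 with the cycling covariate, 337 without both arrays and 0 to 9 without 1 array (9 without ad libitum replicate 1).

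Some members changed sign. Myc (-0.07) was at 0.0154 after median centring, 1.00 with the enterocyte covariate, 0.00193 without calorie restricted replicate 3, and 0.11 or 0.08 when the ad libitum arrays 2 or 3 were left out; the range was -0.40 to 0.11 with 1 array left out. Fbl (0.05) was at -0.0692 with array weights, -0.0288 with the replicate block and when calorie restricted replicate 4 was left out, -0.0425 when ad libitum replicate 1 was, -0.00853 with the cycling covariate and -0.12 without both arrays. Ubtf was at -0.000872 after quantile normalization and Pno1 at -0.23 with the enterocyte covariate. Without both arrays Polr1b was at -0.00575, Mybbp1a at -0.00995 and Dkc1 at -0.0612. The cause of these shifts was not tested.

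Both diets number their replicates, but the numbers did not pair the arrays. Deviations from the diet means of same-numbered arrays, correlated across genes, gave -0.13, -0.27 and -0.55, and 0 of 3 arrays matched their own number best. With the replicate number as a block, 0 genes were called higher and 0 lower (limma, 988 at an unadjusted p below 0.05). The members' median was 0.06 with 30 positive and 0 were called. Replicate 4 exists only under calorie restriction, so the block gave the same member differences as leaving that array out and is no separate check.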
